A study of Homo sapiens with 14 samples.

Results

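The 10 genes described here encode proteins of the apical surface and of the cell junctions beside it: CRB1, CRB2, PARD3, PARD6B, PRKCI, AFDN, NECTIN1, NECTIN3, TJP1 and VCL. They were chosen as a list by symbol, matched to 10 of the 58051 Ensembl genes of the deposited table, and read in all 14 libraries. All 10 passed the filter on low values, a normalized read count of at least 10 in at least 3 libraries.

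The cells were MGE-like progenitors, grown to resemble the medial ganglionic eminence (MGE), the zone of the ventral forebrain where cortical and striatal interneurons are born. They were made from H9, an established human embryonic stem cell line, and collected at day 25. All groups received the TGF-beta and BMP pathway inhibitors SB431542 (2 µM) and LDN193189 (200 nM) on days 0 to 6, and SHH (250 ng/mL) with purmorphamine (0.3 µM), a smoothened activator, on days 10 to 17, then grew in suspension as neurospheres. The groups were an inducible Ctnnb1 overexpression line given doxycycline at 0.1 µg/mL on days 17 to 25 (OE with Dox, n = 3), Ctnnb1 knockout cells (KO, n = 5), the same inducible line without doxycycline (OE without Dox, n = 3) and wild-type cells (WT, n = 3). The labels do not say how the knockout was made, which form of CTNNB1 was expressed, whether a line is 1 clone, or whether replicates are separate differentiations, so p-values may measure technical spread. No WT library received doxycycline, so effects of the drug and of the transgene cannot be told apart.

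In the neural tube and forebrain, progenitors form an epithelium whose apical ends face a fluid-filled lumen and are held together by a belt of adherens junctions. Crumbs proteins and the PAR complex mark the apical membrane, nectins bind neighbouring cells and are tied to actin by afadin, and vinculin and ZO-1 link the junction to the cytoskeleton. Beta-catenin, the product of CTNNB1, binds cadherins in the same belt and is also the transcriptional effector of WNT signalling. Loss of Crumbs, PAR or afadin function disrupts this belt in vertebrate neuroepithelium.

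Values are normalized read counts, which the authors made by dividing gene counts by 1 factor per library. Recovered reads on genes numbered 5233270 to 5639725 per library, and 1 read was worth 0.866 to 0.947 normalized counts. Tests were limma on log2 of the value plus 1, with p adjusted by Benjamini-Hochberg over 17102 genes and called under 0.05. Folds are log2 folds with the first-named group on top, and levels are means ± SD over 5 KO libraries or 3 of any other group. CTNNB1 itself stood at 27059.8 ± 3820.4 in OE with Dox and 3345 ± 276 without, and at 2383 ± 271 in KO and 3814 ± 573 in WT (SD). In KO the transcript was thus lower than in WT, not absent (log2 fold -0.67, adjusted p = 0.001), and the Dox level was higher than without Dox (log2 fold 3.01, adjusted p = 5.8e-11). OE without Dox against WT gave log2 fold -0.18, adjusted p = 0.55 for CTNNB1. All 10 listed MGE markers, among them NKX2-1, LHX6 and LHX8, had reads in every group. Their sum in a library ranged over 1955 to 2857 for OE with Dox, 10132 to 12089 for KO, 7030.0 to 10992 for OE without Dox and 3018 to 3178 for WT, so MGE markers were lowest in OE with Dox.

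CRB1, CRB2, AFDN and NECTIN3 fell with Dox, AFDN and NECTIN3 were higher in KO than in WT, and TJP1, PRKCI and VCL passed in no comparison of 2 groups with all libraries. With Dox, 6 of 10 passed the test against OE without Dox, 2 higher and 4 lower, where 25.7% of all tested genes did (12.8% higher and 12.9% lower). In KO against WT 2 of 10 passed, both higher, where 13.8% of all tested genes did (6.64% higher and 7.15% lower). The uninduced line also differed from WT in 2 of 10, the same pair, with 5.74% of all genes called there (3.43% higher and 2.32% lower). The groups did not overlap for 3 of 10 in that comparison, where this held for 23% of all genes. Against each other, KO and OE without Dox differed in 0 of 10 by limma, edgeR and DESeq2, and 0 of 10 at an unadjusted p under 0.05, with 2.11% of all genes called by limma. Their libraries overlapped for all 10, where 6.86% of all genes did not overlap.

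**Figure D1:**
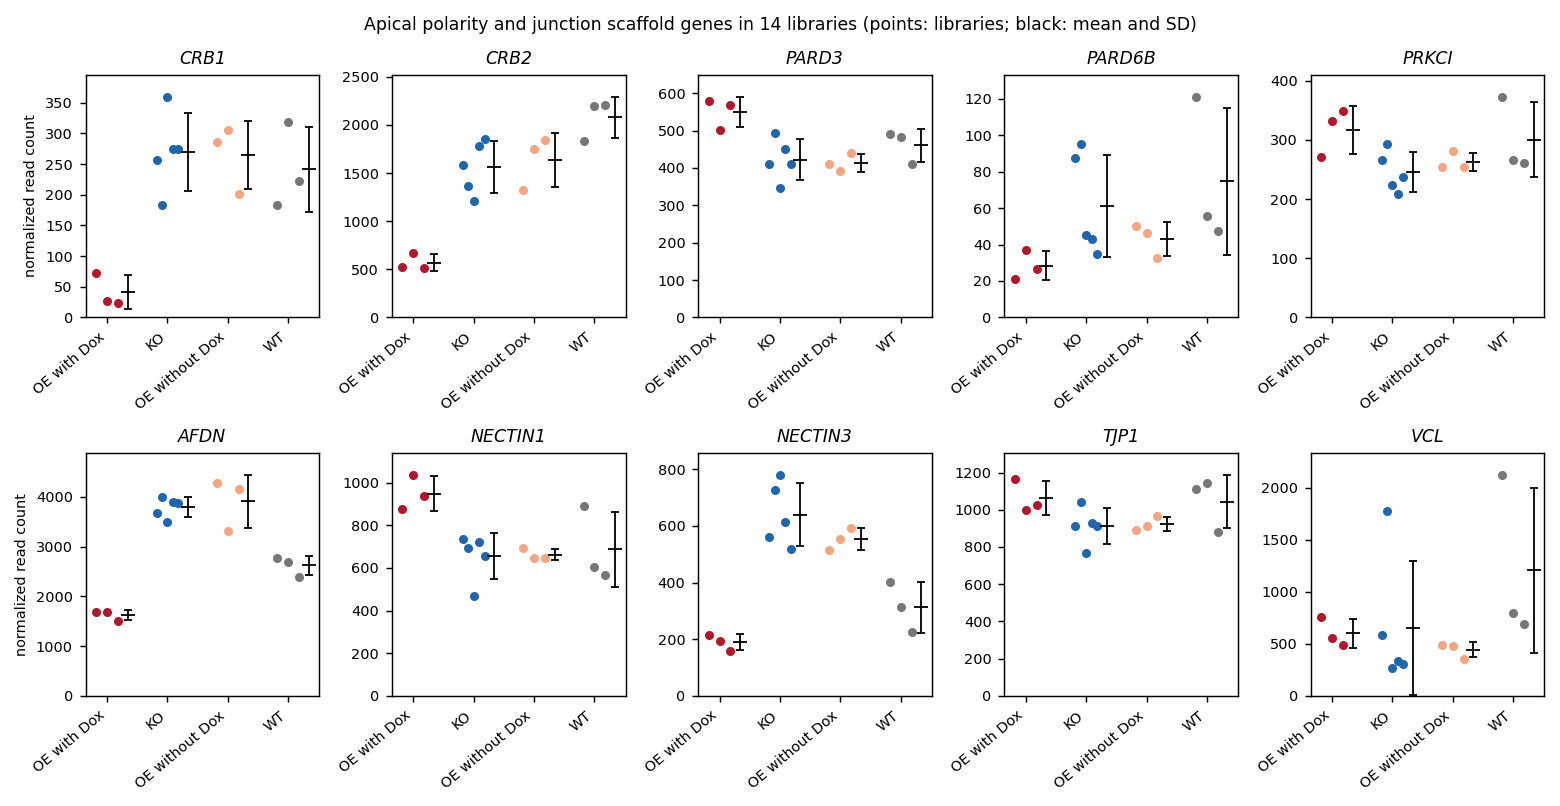
Normalized read count (y axis, from 0) of each of the 10 genes in OE with Dox, KO, OE without Dox and WT (x axis); each point is 1 library, and the black mark and bar are the group mean and SD (n = 3, 5, 3 and 3). CRB1, CRB2, AFDN and NECTIN3 sit lowest in all 3 OE with Dox libraries, and VCL stands high in 1 KO library (1781) and 1 WT library (2123).

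CRB1 and CRB2 are the large membrane proteins of the Crumbs complex, whose short inner tails bind PALS1 and PAR proteins and so define the apical domain. CRB2 (ENSG00000148204, chromosome 9, 123356170 to 123380324, plus strand, hg38) is the form best known from neuroepithelium, and CRB1 (ENSG00000134376, chromosome 1, 197268204 to 197478455, plus strand) is best known from the retina. CRB2 had 522, 667 and 512 normalized counts in OE with Dox, against 1319, 1751 and 1838 in OE without Dox. It had 1586, 1370.1, 1208, 1780.5 and 1858 in KO, against 1828, 2192 and 2212 in WT. The 3 Dox libraries lay below every library of the other groups, and KO overlapped WT.

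With Dox, CRB2 fell to 567 ± 87.1, against 1636 ± 278 without (log2 fold -1.52, SE 0.17, adjusted p = 2.3e-06; SD, n = 3 each). In KO it stood at 1561 ± 273, against 2077 ± 216 in WT (log2 fold -0.43, SE 0.15, adjusted p = 0.078), which misses the threshold. Leaving out KO replicate 5 brought that adjusted p to 0.047, the only pass among 16 sets of left-out libraries, where it reached 0.25. Of 11 other settings, only the replicate block passed (log2 fold -0.58, adjusted p = 0.016 by limma). The level in OE without Dox was close to that in KO (log2 fold -0.07, adjusted p = 0.98, 95% interval -0.39 to 0.25). CRB2 shares exon sequence with DENND1A on the opposite strand, and reads from the 2 genes cannot be told apart if counting ignores strand. DENND1A fell with Dox as well, to 205 ± 37.3, against 331 ± 11.3 without (log2 fold -0.70, adjusted p = 0.0053); its part in the CRB2 value was not tested.

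CRB1 had 72.9, 26.0 and 24.0 in OE with Dox, against 286, 305 and 201 in OE without Dox. It had 256, 183, 359.9, 275 and 274 in KO, against 183, 318 and 223 in WT. Only the Dox libraries stood apart: the highest of them was below the lowest of the other 11. CRB1 fell with Dox by 2.83 on the log2 scale (SE 0.35, adjusted p = 1.3e-05), more than any other of the 10 genes. In KO against WT its fold was 0.17 (adjusted p = 0.81), with a 95% interval of -0.49 to 0.83, and the fold changed sign when WT replicate 1 was left out (-0.01). In bulk RNA, fewer cells of a type and less RNA per cell cannot be told apart, here and below. Neural progenitor markers moved with Dox too: 1 higher and 7 lower of 10 tested, with a summed level of 16628 to 19660.3 with Dox and 23244 to 24843 without. NES was among the lower ones, SOX2 passed in neither direction (log2 fold -0.13, adjusted p = 0.54) and VIM was higher (log2 fold 1.14, adjusted p = 0.00052). The part of cell composition in the fall of CRB1 and CRB2 was not tested.

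Per kilobase of exon, CRB2 was the more abundant of the Crumbs pair in each group. CRB2 had 89.3 and CRB1 3.22 normalized counts per kb with Dox, and 327 and 19.0 in WT. On this scale CRB2 and AFDN held the top 2 places among the 10 genes in KO, OE without Dox and WT. In OE with Dox the top 2 were NECTIN1 (121 per kb) and AFDN (118). PARD6B was lowest in KO, OE without Dox and WT, at 13.1, 9.18 and 15.9 per kb. In OE with Dox CRB1 was lowest.

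The other Crumbs complex genes moved in both directions with Dox. Of 6 tested partners 2 were higher and 1 lower with Dox. PATJ, a multi-PDZ scaffold that binds PALS1, rose to 3499 ± 809 with Dox, against 103 ± 8.34 without (log2 fold 5.05, SE 0.21, adjusted p = 8.6e-12), a 34-fold ratio of means. MPDZ, a close relative of PATJ, rose to 1892 ± 117 against 1289.9 ± 122 (log2 fold 0.55, adjusted p = 0.0087). PALS1, the direct partner of the Crumbs tail, fell to 285 ± 30.2 against 461 ± 15.3 (log2 fold -0.70, adjusted p = 0.0011). The partners had 1 higher and 0 lower in KO against WT, namely LIN7A, a small PDZ adaptor (574 ± 115 against 267 ± 95.3; log2 fold 1.14, adjusted p = 0.0013). CRB3, the Crumbs gene of most simple epithelia, did not pass the filter on low values and had 7, 9, 2 and 0 reads over the libraries of OE with Dox, KO, OE without Dox and WT.

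PARD3, PARD6B and PRKCI encode the 3 core parts of the PAR complex: the scaffold PAR3, the adaptor PAR6-beta and the atypical protein kinase C iota. PARD3 (ENSG00000148498, chromosome 10, 34109560 to 34815325, minus strand) had 579, 503 and 568 in OE with Dox, against 409.7, 392 and 439.7 in OE without Dox. It had 410.1, 494, 347, 450.1 and 409.8 in KO, against 490.4, 482 and 411 in WT. The Dox libraries lay above those without Dox, by a small margin, and KO overlapped WT.

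PARD3 rose with Dox (log2 fold 0.41, SE 0.14, adjusted p = 0.038). This call is near its threshold: it was lost when any 1 of OE without Dox replicates 1, 2 and 3 or of OE with Dox replicates 1 and 3 was left out, with adjusted p between 0.053 and 0.11, under upper quartile scaling (0.1) and with no filter on low values (0.11). In KO against WT its fold was -0.13, with a 95% interval of -0.39 to 0.13 (adjusted p = 0.59).

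PRKCI (ENSG00000163558, chromosome 3, 170222424 to 170305977, plus strand) had 271, 332 and 348 in OE with Dox, against 253, 280.4 and 255 in OE without Dox. It had 265, 293, 223, 209 and 238 in KO, against 373, 266 and 262 in WT. The groups overlap in both comparisons, and neither fold passed the test (log2 fold 0.26, adjusted p = 0.28 with Dox; log2 fold -0.28, adjusted p = 0.27 in KO). The 95% intervals were -0.09 to 0.62 and -0.59 to 0.03, so changes of the size seen for PARD3 are within them. The annotation holds a PRKCI pseudogene, PRKCIP1, and reads shared with it could not be assigned with certainty.

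PARD6B (ENSG00000124171, chromosome 20, 50731580 to 50756795, plus strand) was the least abundant of the 10 per kilobase outside OE with Dox and rested on 92 to 331 reads per group. It had 21.2, 37.2 and 26.7 in OE with Dox, against 50.3, 46.3 and 32.6 in OE without Dox. It had 87.8, 95.4, 45.3, 43.1 and 34.9 in KO, against 121, 55.4 and 47.6 in WT. KO replicates 1 and 2 and WT replicate 1 stood high, and neither the Dox nor the KO comparison passed the test (log2 fold -0.60, adjusted p = 0.3 with Dox; log2 fold -0.27, adjusted p = 0.7 in KO). OE with Dox was lower than WT (log2 fold -1.28, adjusted p = 0.027). In that comparison 5 of the 10 were called, all lower, and 6 did not overlap. Of all genes 20.5% were called there (10.4% higher and 10.1% lower), and 31.6% did not overlap. The PARD6B call did not hold without single libraries: the adjusted p was 0.14 without WT replicate 1, 0.1 without OE with Dox replicate 1 and 0.075 without OE with Dox replicate 3. PARD6B has a pseudogene in the annotation, PARD6BP1, which could share reads with it.

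Of the 5 other PAR genes tested, 2 rose and 0 fell with Dox, and 0 rose and 1 fell in KO. PARD6G, the third PAR6 paralogue, was the gene called in both: 444 ± 69.7 with Dox against 175 ± 12.9 without (log2 fold 1.33, SE 0.16, adjusted p = 6.6e-06), and 175 ± 23.1 in KO against 243 ± 38 in WT (log2 fold -0.47, SE 0.15, adjusted p = 0.04). CDC42, the small GTPase that binds PAR6, rose with Dox (log2 fold 0.36, adjusted p = 0.04).

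AFDN and NECTIN3 were the 2 genes called in KO against WT, both higher, and both fell with Dox. Nectins are immunoglobulin-like adhesion proteins, and NECTIN1 and NECTIN3 bind each other across neighbouring cells. AFDN encodes afadin, the scaffold that ties nectin tails to actin. AFDN (ENSG00000130396, chromosome 6, 167826893 to 167972023, plus strand) had 3679, 3996, 3491, 3903 and 3879 in KO, against 2777, 2688 and 2393 in WT. It had 1678, 1674 and 1504 in OE with Dox, against 4279, 3304 and 4150.1 in OE without Dox. The groups do not overlap in either comparison, which held for 2 of the 10 genes in KO against WT (18.1% of all genes) and for 8 of the 10 with Dox (40.7% of all genes).

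AFDN rose in KO to 3789.7 ± 203, against 2619 ± 201 in WT (log2 fold 0.53, SE 0.11, adjusted p = 0.0018). It fell with Dox to 1619 ± 99.1, against 3911 ± 529 without (log2 fold -1.26, SE 0.12, adjusted p = 2.8e-07). The uninduced line was above WT by nearly the same amount as KO (log2 fold 0.57, SE 0.12, adjusted p = 0.0072), and the fold of KO against the uninduced line was -0.04 (95% interval -0.26 to 0.19). KO and the uninduced line were set against the same 3 WT libraries. OE with Dox was also below WT (log2 fold -0.69, adjusted p = 0.00027). The call of OE without Dox against WT was lost without OE without Dox replicate 1 (adjusted p = 0.056).

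NECTIN3 (ENSG00000177707, chromosome 3, 111070071 to 111275563, plus strand) had 561, 728, 780.4, 613 and 517 in KO, against 402, 312 and 223 in WT. It had 216, 195 and 158 in OE with Dox, against 517, 555 and 594 in OE without Dox. As for AFDN, KO and the uninduced line stood highest, WT lower and OE with Dox lowest. NECTIN3 rose in KO to 639.8 ± 111, against 313 ± 89.4 in WT (log2 fold 1.05, SE 0.18, adjusted p = 0.00038), and fell with Dox to 189.6 ± 29.6, against 555 ± 38.6 without (log2 fold -1.55, SE 0.20, adjusted p = 9.1e-06).

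OE without Dox was above WT for NECTIN3 (log2 fold 0.87, adjusted p = 0.013), a call lost without WT replicate 3 (adjusted p = 0.089) or without OE without Dox replicate 3 (0.057). KO against OE without Dox gave a fold of 0.19 (95% interval -0.18 to 0.56, adjusted p = 0.92). OE with Dox was below WT (log2 fold -0.69, adjusted p = 0.017), a call lost without WT replicate 1 (0.099), without WT replicate 2 (0.052) or without OE with Dox replicate 3 (0.09), and when these 2 groups were fitted alone (0.054).

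Markers of neurons and of MGE identity stood, like AFDN and NECTIN3, highest in KO and OE without Dox, lower in WT and lowest in OE with Dox. The summed level of the 10 neuron markers, among them DCX, STMN2 and MAP2, was 5870.1 to 6454 in OE with Dox and 17426 to 19663 without, and 17489.5 to 21401 in KO and 9605 to 11226 in WT. Against WT, 8 of the 10 rose and 0 fell in KO, and 4 rose and 0 fell in OE without Dox. With Dox 1 rose and 9 fell. Their part in the AFDN and NECTIN3 values was not tested. The genes whose log2 values followed AFDN most closely over the 14 libraries were SEPTIN3 (Pearson r = 0.99) and TMEM121B (r = 0.99), and for NECTIN3 LINC01563 (r = 0.98) and HS6ST2 (r = 0.97), a description over libraries that share 4 groups.

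The promoters of AFDN and NECTIN3 are shown because these were the 2 genes that rose in KO and fell with Dox. Each sequence is the 250 bases before a RefSeq start site, from RefSeq's table for GRCh38.p14, 5′ to 3′ on the plus strand, and capitals mark the GC box letters GGGCGG or their reverse complement. For both genes GENCODE places the outermost start further upstream than this RefSeq start.
AFDN, chr6:167827385-167827634: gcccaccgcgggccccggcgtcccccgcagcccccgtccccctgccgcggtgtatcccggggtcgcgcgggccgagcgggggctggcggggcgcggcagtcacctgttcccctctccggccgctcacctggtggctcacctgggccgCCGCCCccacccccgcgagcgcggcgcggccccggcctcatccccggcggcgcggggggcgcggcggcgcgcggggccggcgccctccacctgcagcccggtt
NECTIN3, chr3:111071566-111071815: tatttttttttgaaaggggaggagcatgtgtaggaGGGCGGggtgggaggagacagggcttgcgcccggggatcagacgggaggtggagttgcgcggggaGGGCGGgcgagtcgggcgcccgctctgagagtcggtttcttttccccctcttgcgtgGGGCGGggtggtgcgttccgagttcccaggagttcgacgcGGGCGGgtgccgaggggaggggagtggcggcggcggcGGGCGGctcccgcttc
The AFDN stretch is 84.8% G or C and holds 1 GC box, and the NECTIN3 stretch is 69.2% G or C and holds 5. Counting from 250 bases before to 50 after the start, 8 of 11 RefSeq windows hold GC box letters on either strand, beside 45% of all 35116 windows. The 11 windows belong to 7 of the 10 genes, with more than 1 each for TJP1 and CRB2. Of these 7 genes, 6 hold GC box letters in at least 1 window.

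TCF/LEF factors, which bring beta-catenin to DNA, recognise the letters CAAAG preceded by 2 bases that are each A or T. RefSeq windows of 300 bases, from 250 before to 50 after the start, matched 7 of the 10 genes with 11 windows. On either strand, 1 of these 11 windows held such a motif: a TJP1 window with 2 matches, after its start site. AFDN, NECTIN3, CRB1 and CRB2 had none in these windows, where 13.8% of all 35116 windows had at least 1. PARD3, PARD6B and NECTIN1 had no entry.

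NECTIN1 (ENSG00000110400, chromosome 11, 119623408 to 119729200, minus strand) rose with Dox, where its partner NECTIN3 fell. It had 875, 1037 and 936 in OE with Dox, against 692, 648 and 647 in OE without Dox. It had 736, 694, 470.5, 722 and 657 in KO, against 889.9, 606 and 568 in WT. The Dox libraries lay above those without Dox, KO replicate 3 was the lowest of all 14, and WT replicate 1 stood well above the other WT libraries.

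NECTIN1 rose with Dox to 949.7 ± 81.7, against 662 ± 25.8 without (log2 fold 0.52, SE 0.18, adjusted p = 0.038). The call was lost when any 1 of OE without Dox replicates 1, 2 and 3 or of OE with Dox replicates 2 and 3 was left out, with adjusted p between 0.07 and 0.13, and under upper quartile scaling (0.079). OE with Dox against WT missed the threshold (log2 fold 0.49, adjusted p = 0.058) and passed it without WT replicate 1 (0.0071) or without KO replicate 3 (0.025). In KO against WT the fold was -0.06 (95% interval -0.39 to 0.27), and its sign turned without WT replicate 1 (0.14). Of the 2 other genes of this family tested, SSX2IP, an afadin partner, fell with Dox to 299 ± 39.7, against 436 ± 21.7 without (log2 fold -0.55, adjusted p = 0.023). NECTIN2 passed in neither the Dox nor the KO comparison, with 290.2 ± 60.1 with Dox and 369 ± 23.1 without, and 388 ± 131 in KO and 526 ± 195 in WT.

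**Figure D2:**
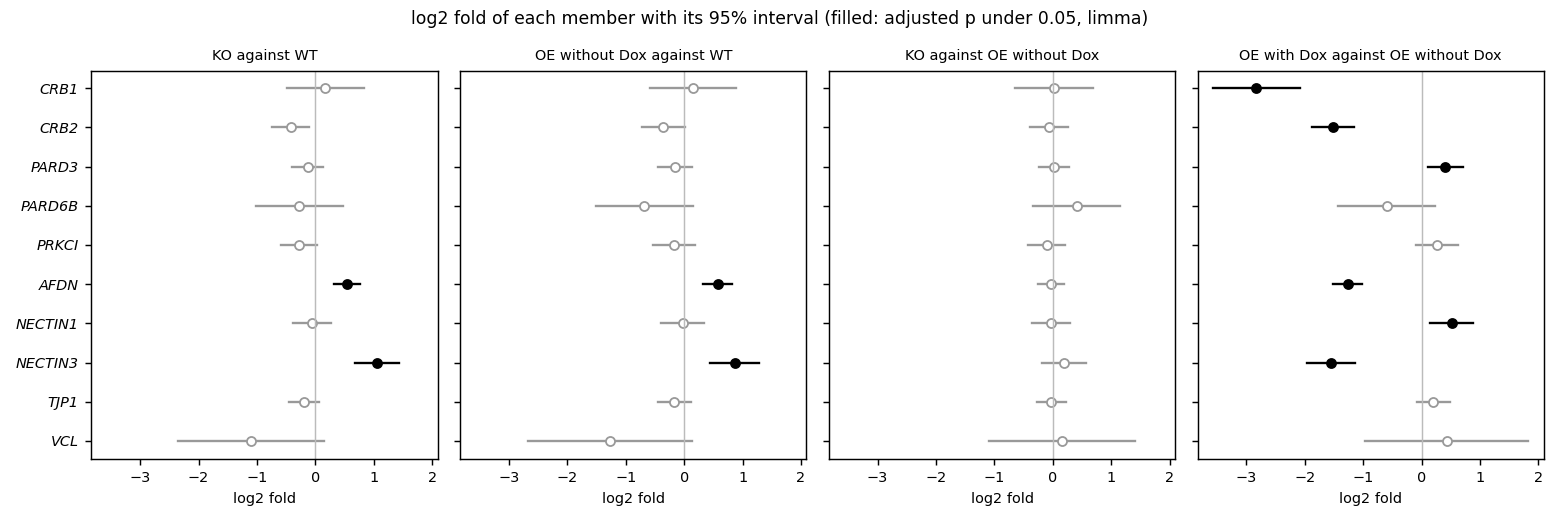
The log2 fold (x axis) of each of the 10 genes (rows) in 4 comparisons, with its 95% interval from limma; filled points have an adjusted p under 0.05. AFDN (0.53 and 0.57) and NECTIN3 (1.05 and 0.87) are above 0 both in KO and in OE without Dox against WT, all 10 intervals of KO against OE without Dox include 0, and CRB1 (-2.83), CRB2, AFDN and NECTIN3 lie below -1 with Dox.

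The effects of gain and loss were compared directly as the Dox effect minus the KO effect, where 28.8% of all genes were called (15.1% above 0 and 13.6% below). Over all genes 2589 were above 0 and 2331 below, and 2130 and 2791 under upper quartile scaling. Of the 10 genes 5 were called, 1 above 0 and 4 below. AFDN had a difference of -1.80 (SE 0.16, adjusted p = 1.2e-07) and NECTIN3 of -2.61 (SE 0.26, adjusted p = 6.1e-07), since these 2 rose in KO and fell with Dox. Their rise against WT was not particular to KO, as OE without Dox was above WT too (log2 folds 0.57 and 0.87). KO against OE without Dox gave -0.04 and 0.19, neither called. CRB1 had -2.99 (adjusted p = 0.00012) and CRB2 -1.10 (adjusted p = 0.0013). PARD3, at 0.54 (adjusted p = 0.037), lost its call without WT replicates 1 or 2, KO replicates 1, 3 or 5, OE without Dox replicates 1 or 2, or OE with Dox replicates 1 or 3, with adjusted p of 0.052 to 0.081. It also lost it under upper quartile scaling (0.13) and with no filter on low values (0.1).

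Between the ends of the CTNNB1 range, OE with Dox and KO, 7 of the 10 genes were called, 2 higher and 5 lower, where 32.5% of all genes were (16.8% higher and 15.6% lower), and 6 did not overlap, as for 33.2% of all genes. Over all genes 2879 were higher and 2676 lower, against 2317 and 3366 under upper quartile scaling. CRB1 (log2 fold -2.85, adjusted p = 2.1e-06), CRB2 (log2 fold -1.45, adjusted p = 5.8e-07), AFDN (log2 fold -1.23, adjusted p = 5.1e-08) and NECTIN3 (log2 fold -1.74, adjusted p = 3.5e-07) were lower with Dox than in KO. PARD6B was lower too (log2 fold -1.0, adjusted p = 0.036), a call lost without KO replicate 1 (0.082), KO replicate 2 (0.082), OE with Dox replicate 1 (0.15) or OE with Dox replicate 3 (0.1). NECTIN1 (log2 fold 0.55, adjusted p = 0.012) and PARD3 (log2 fold 0.39, adjusted p = 0.023) were higher with Dox. The NECTIN1 call was lost without OE with Dox replicate 2 (0.064). The PARD3 call was lost without OE with Dox replicate 1 (0.085) or 3 (0.084), under upper quartile scaling (0.11), or with no filter on low values (0.061). PRKCI missed the threshold with all libraries (log2 fold 0.37, adjusted p = 0.068) and passed it without KO replicate 2 (0.037), WT replicate 1 (0.041) or OE with Dox replicate 1 (0.041).

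TJP1 (ENSG00000104067, chromosome 15, 29699367 to 29968915, minus strand), which encodes ZO-1, a scaffold of tight and adherens junctions that binds actin, was the steadiest of the 10. It had 1167, 999 and 1023 in OE with Dox, against 893, 911 and 968 in OE without Dox. It had 911, 1041, 765, 929 and 912 in KO, against 1110.4, 1142 and 879 in WT. Its highest group mean was 1.17 times its lowest, and no comparison of 2 groups passed the test. The folds were 0.20 with Dox (95% interval -0.08 to 0.48, adjusted p = 0.31) and -0.19 in KO against WT (-0.44 to 0.06, adjusted p = 0.36). CNOT1 (r = 0.94) and PARD3 (r = 0.87) followed TJP1 most closely over the 14 libraries.

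VCL (ENSG00000035403, chromosome 10, 73995193 to 74121363, plus strand) encodes vinculin, which is recruited to junctions under tension and links them to actin. It had 581, 1781, 268, 332 and 305 in KO, against 2123, 799 and 694 in WT. It had 756, 552 and 489 in OE with Dox, against 488, 482 and 356 in OE without Dox. KO replicate 2 and WT replicate 1 stood above every other library, and the SD in KO, 642, was close to the mean, 654.

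With all libraries, no comparison of 2 groups passed for VCL. In KO against WT the fold was -1.11 (SE 0.57, 95% interval -2.36 to 0.14, adjusted p = 0.27), and with Dox 0.43 (SE 0.64, adjusted p = 0.68). Without KO replicate 2 the KO fold was -1.57 (adjusted p = 0.0096), without WT replicate 1 it was -0.60 (adjusted p = 0.61), and without both it was -1.07 (adjusted p = 0.015). The value therefore turns on these 2 libraries. The Dox effect minus the KO effect was 1.53 (adjusted p = 0.22), and 2.00 without KO replicate 2 (adjusted p = 0.011). Without both libraries it was 1.5 (adjusted p = 0.0059), and OE with Dox against KO was 0.73 (adjusted p = 0.025), beside 0.27 with all libraries (adjusted p = 0.77). AP3M1, which shares exon sequence with VCL on the opposite strand, stood at 563, 581, 584, 612 and 625 in KO and 584, 722 and 646 in WT, and was not high in either library.

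Other actin-linked genes stood high in the same libraries. Of 14 listed actin linkers, 9 were highest in WT replicate 1 among WT and in KO replicate 2 among KO, as were 2265 of all 17102 genes (13.2%). The 14 and the 9 both include VCL, whose own values pointed to these 2 libraries. EZR, which encodes ezrin, an apical membrane-actin linker, had 1047 in KO replicate 2 and 2281 in WT replicate 1, beside 557 to 808 in the other KO libraries and 857 and 909 in the other WT libraries. AJUBA, a LIM protein of junctions, had 532 and 989 there, beside 219.8 to 271 in the other KO libraries and 400.4 and 425 in the other WT libraries. Among the 10 genes, PARD3, PARD6B, PRKCI and AFDN were highest in these 2 libraries of their groups too, some by small margins. AFDN had 2777 beside 2688 in the next WT library, and 3996 beside 3903 in the next KO library. PARD3 had 490 beside 482 in WT. The pattern of these 2 libraries was described after the values were seen, and its source was not tested.

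**Figure D3:**
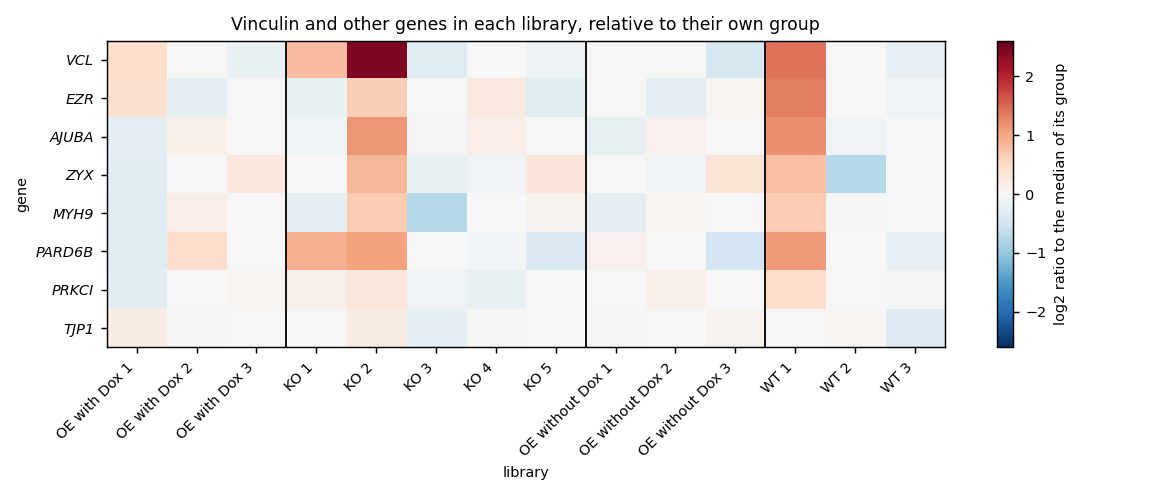
Heat map of the log2 ratio of each gene (rows) to the median of its own group in each of the 14 libraries (columns, grouped as OE with Dox, KO, OE without Dox and WT); red is above and blue below the group median. VCL, EZR, AJUBA, ZYX, MYH9 and PARD6B are above their group medians in both KO replicate 2 and WT replicate 1, where VCL reads 1781 and 2123, while TJP1 stays near 0 throughout.

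Over the libraries, each of the other genes had its own closest followers in log2 value. By Pearson r over the 14 libraries these were PRKAR2B (0.97) for CRB1, ABHD3 (0.97) and MCAM (0.97) for CRB2, EML4 (0.95) and IL17RD (0.93) for PARD3, and PTP4A1 (0.94) and PER2 (0.94) for PARD6B. They were SCARF2 (0.92) and SPRED2 (0.92) for PRKCI, UBE2O (0.95) and CDC14B (0.95) for NECTIN1, and PHF13 (0.93) and WAPL (0.92) for VCL.

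The wider polarity and junction lists, 91 genes of which 86 were tested, had 22 higher and 16 lower with Dox, and 6 higher and 15 lower in KO against WT. Of all genes 12.8% were higher and 12.9% lower with Dox, and 6.64% higher and 7.15% lower in KO. Without the 10 genes the counts were 20 higher and 12 lower of 76 with Dox, and 4 higher and 15 lower of 76 in KO. The median log2 fold of these 76 was 0.25 with Dox, beside 0.02 over all genes, and -0.15 in KO, beside -0.02 over all genes. In OE without Dox against WT the 76 had 2 higher and 4 lower, where 3.43% and 2.32% of all genes were. In KO against OE without Dox they had 0 higher and 3 lower, beside 0.351% and 1.75% of all genes. Of those among the 76 called in KO against WT, only CGNL1 and CLDN1 were also called in KO against OE without Dox.

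Among genes of tight junction membranes and of actin linkage, more calls were lower than higher in KO, and more were higher than lower with Dox. Of 11 tight junction membrane genes 1 was higher and 3 lower in KO, and 4 higher and 0 lower with Dox. CLDN1, a sealing claudin, fell in KO to 7.78 ± 3.34, against 78.7 ± 12.3 in WT (log2 fold -3.28, SE 0.31, adjusted p = 6.9e-07), and lay below the uninduced line too, which had 71.4 ± 6.04 (log2 fold -3.15, adjusted p = 5.4e-06). JAM2, an immunoglobulin-like junction protein, fell in KO to 418 ± 45.1, against 664 ± 72.9 (log2 fold -0.67, adjusted p = 0.0013), and rose with Dox to 1144 ± 154, against 432 ± 40.3 (log2 fold 1.40, adjusted p = 7e-07). CLDN5 did likewise at low levels (log2 fold -2.61, adjusted p = 0.00051 in KO; log2 fold 1.59, adjusted p = 0.025 with Dox). CLDN12 ran the other way in KO (log2 fold 0.47, adjusted p = 0.019). JAM2 and CLDN5 were also called lower in OE without Dox than in WT.

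OCLN, which encodes occludin, rose with Dox to 34.2 ± 4.77, against 11 ± 3.29 (log2 fold 1.58, adjusted p = 0.0034), and CLDN11 rose to 75.4 ± 60.4, against 7.34 ± 5.15, with a wide spread (log2 fold 3.06, adjusted p = 0.0058). Markers of non-neural epithelium were higher with Dox at the same time, 5 higher and 0 lower of 7 tested, with a summed level of 393 to 871 with Dox and 126 to 244 without. Mesenchyme markers had 7 higher and 0 lower of 10 tested, with sums of 1751 to 6924 and 379 to 1837. The epithelial list had 0 higher and 3 lower of 7 tested in KO against WT, and the mesenchyme list 0 higher and 4 lower of 10 tested. Choroid plexus markers had 4 higher and 1 lower of 9 tested with Dox, and 0 higher and 5 lower in KO against WT. In KO against OE without Dox these lists had 0 higher, with 5 lower for choroid plexus, 1 for epithelium and 3 for mesenchyme. Of their defining markers, KRT5 and TP63 had 0 reads in KO and TP63 had 0 in WT, and the rest had reads in every group. The part of such cells in these junction values was not tested.

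Among 10 tight junction scaffolds beside TJP1, 1 was higher and 1 lower in KO, and 1 higher and 3 lower with Dox. CGN, cingulin, rose in KO to 77.8 ± 15.8, against 35.9 ± 17.0 (log2 fold 1.18, adjusted p = 0.008), and fell with Dox to 30.9 ± 10.7, against 82.5 ± 16.5 (log2 fold -1.42, adjusted p = 0.0026), the directions of AFDN and NECTIN3. Like them, CGN was also called higher in OE without Dox than in WT. Its paralogue CGNL1 fell in KO to 2.03 ± 0.77, against 21.6 ± 8.41 in WT (log2 fold -2.88, adjusted p = 1.7e-05); the KO value rests on 11 reads over 5 libraries. AMOTL1 rose (log2 fold 0.61, adjusted p = 0.0018) and its relative AMOTL2 fell with Dox (log2 fold -0.78, adjusted p = 0.036), as did the scaffold MAGI3 (log2 fold -0.48, adjusted p = 0.021).

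Of 13 actin linkers beside VCL, 0 were higher and 5 lower in KO, and 5 higher and 1 lower with Dox. ACTN1, alpha-actinin, fell in KO to 261 ± 75.5, against 517 ± 83.7 (log2 fold -1.01, adjusted p = 0.0032). TLN1, talin, fell in KO to 385 ± 79.7, against 596 ± 15.0 (log2 fold -0.66, adjusted p = 0.016), and rose with Dox to 1015 ± 243, against 434 ± 48.0 (log2 fold 1.20, adjusted p = 0.00014). RDX, radixin, fell in both (log2 fold -0.35, adjusted p = 0.024 in KO; log2 fold -0.40, adjusted p = 0.014 with Dox), while its relative MSN, moesin, rose with Dox (log2 fold 0.65, adjusted p = 0.00089). LIMA1, an actin-bundling protein of junctions, rose with Dox to 375 ± 9.38, against 111 ± 13.4 (log2 fold 1.75, adjusted p = 0.0021), and VASP, an actin-filament elongation factor, fell in KO (log2 fold -0.73, adjusted p = 0.035). ACTN1 and VASP were also called lower in OE without Dox than in WT. Of the linkers called lower in KO, ACTN1, AJUBA and VASP were highest in WT replicate 1 and KO replicate 2 of their groups. VASP had 334 in WT replicate 1, beside 178 and 198 in the other WT libraries. It had 189 in KO replicate 2, so the groups overlapped. These calls were not examined with single libraries left out.

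Of 10 genes of apical constriction 0 were higher and 3 lower in KO, and 4 higher and 1 lower with Dox. MYL9, a myosin light chain, fell in KO to 19.8 ± 7.69, against 58.9 ± 10.8 (log2 fold -1.60, adjusted p = 0.005), and rose with Dox to 90.6 ± 44.4, against 23.8 ± 6.81 (log2 fold 1.78, adjusted p = 0.0027). RHOA, the GTPase that activates ROCK, did the same by less (log2 fold -0.40, adjusted p = 0.0082 in KO; log2 fold 0.44, adjusted p = 0.0051 with Dox). SHROOM2 fell in KO (log2 fold -0.60, adjusted p = 0.017), and with Dox SHROOM4 fell (log2 fold -1.52, adjusted p = 6.8e-05) and SHROOM1 rose (log2 fold 1.81, adjusted p = 0.00028), all 3 being actin-binding proteins of the Shroom family.

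Of the 11 Scribble complex genes and lateral kinases, 1 was higher and 1 lower in KO, and 2 higher and 4 lower with Dox. DLG2 rose in KO to 191 ± 42.8, against 59.7 ± 21.7 (log2 fold 1.70, adjusted p = 0.00025), and fell with Dox to 37.3 ± 12.4, against 164 ± 47.9 (log2 fold -2.13, adjusted p = 3.4e-05). It was also called higher in OE without Dox than in WT. DLG2 encodes PSD-93, which is also a postsynaptic scaffold of neurons. LLGL2, a basolateral polarity protein of epithelia, fell in KO to 21.7 ± 8.22, against 46.1 ± 5.94 (log2 fold -1.13, adjusted p = 0.021), and rose with Dox to 106 ± 46.2, against 19.5 ± 3.63 (log2 fold 2.30, adjusted p = 7e-05). MARK1, a polarity kinase, and DLG3 fell with Dox (log2 fold -1.40, adjusted p = 1.2e-05 for MARK1; log2 fold -0.98, adjusted p = 1.9e-05 for DLG3). Of 8 tested genes of the apical domain and spindle of progenitors, GPSM2, a spindle-orientation adaptor, was the 1 called in KO (log2 fold -0.49, adjusted p = 0.037), and ASPM, a spindle-pole protein, the 1 called with Dox (log2 fold -0.62, adjusted p = 0.011); both were lower.

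**Figure D4:**
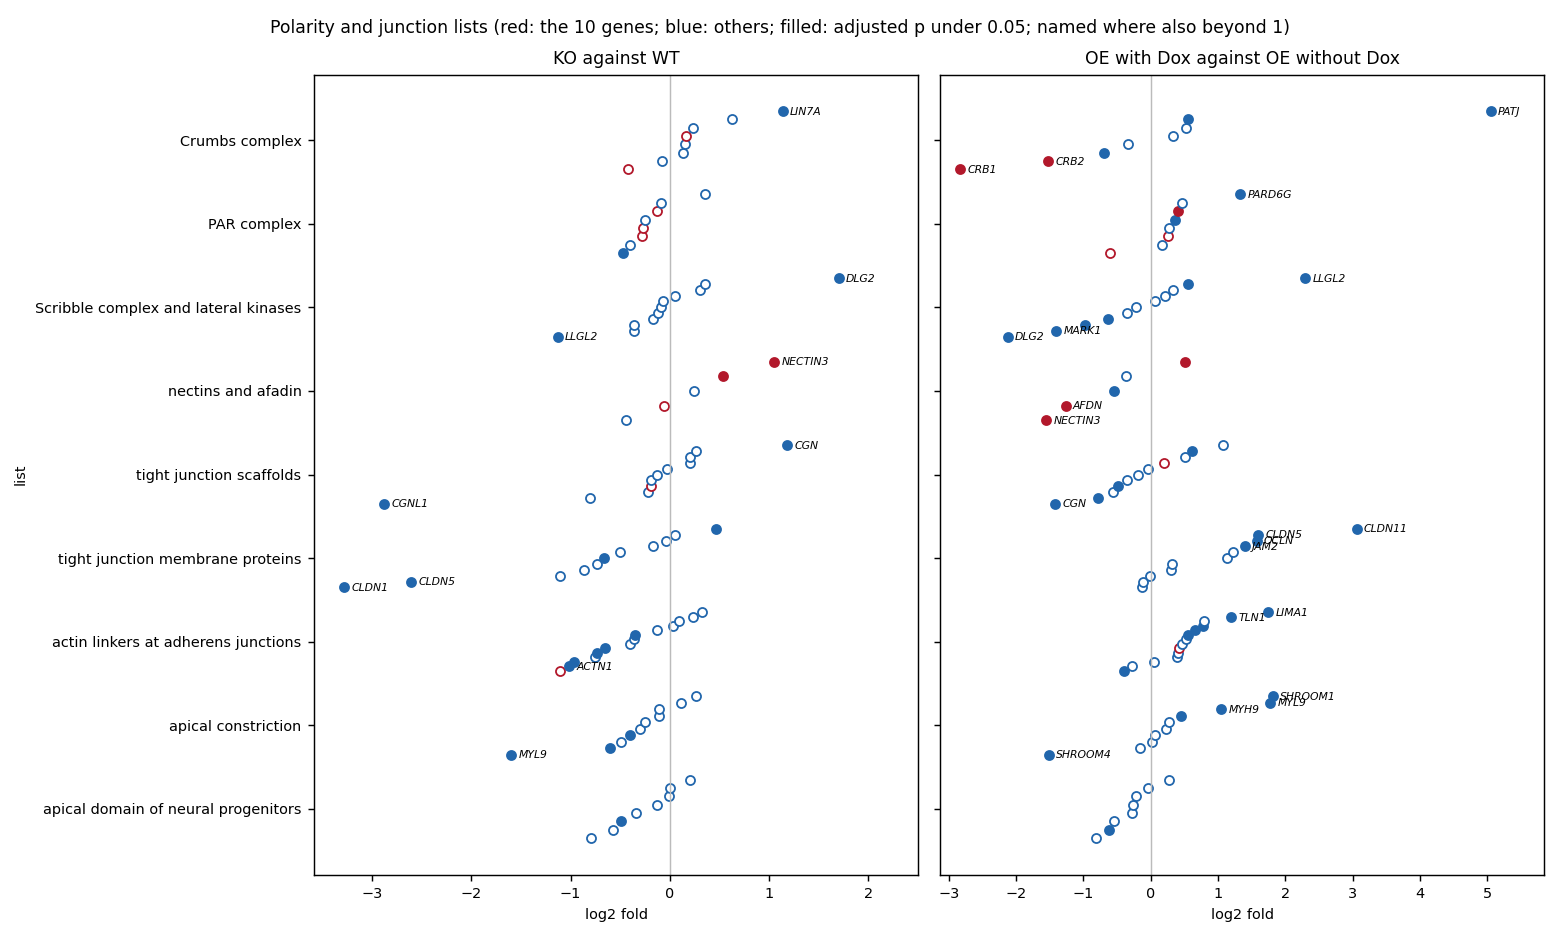
The log2 fold (x axis) of every tested gene of the polarity and junction lists (rows) in KO against WT (left) and in OE with Dox against OE without Dox (right); red marks the 10 genes, blue the others, and filled points have an adjusted p under 0.05. PATJ (5.05) with Dox and CLDN1 (-3.28) in KO lie farthest from 0, and most actin linkers lie below 0 in KO and above 0 with Dox.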

How the data were processed

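RNA sequencing of 14 libraries of 500 ng total RNA gave 1 table. The deposited values are a signal scaled by the authors, namely whole reads per gene over a size factor, 1 for each library: 100% of them are whole multiples of a library's step at a tolerance of 0.01. TopHat2 2.1.1, HTSeq 0.9.1, R 3.4.0, DESeq2 and hg38 are named per the submitters' processing notes, with no roles or order; annotation release and strand setting are not given in the sources used here. GENCODE 44, which has names for 56948 of 58051 genes, gave names, exon lengths and coordinates, and all 169 listed symbols matched. Groups and replicate numbers come from the sample titles.

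Folds were tested on log2(value + 1) with limma 3.58.1 (R 4.3.3), 1 model of 14 libraries and 4 groups, fitted two-sided with a trend and the robust option, leaving 10 residual degrees of freedom; it was tested on simulated data. The pseudocount makes folds of low genes too small. Genes with a value of at least 10 in at least 3 libraries entered, 17102 in all. Each fold of the 10 genes was recomputed with TMM or upper quartile scaling, with a filter of 50 or none, and with a pseudocount of 0.5 or 5. It was also recomputed without the robust option, with a replicate block, within the compared groups and without each library. DESeq2 1.42.0 and edgeR 4.0.16 were run on the recovered reads. After seeing the data, 2 sets of left-out libraries were added. Single folds of genes outside the 10 were not examined in these settings. Figures used Python 3.11.15 and matplotlib 3.10.9. A count of 0 allows up to 3 reads, 2.60 to 2.84 normalized counts; floors cover counting error only.

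The 10 genes, the lists and the rule for named genes (the 10, CTNNB1, up to 4 called genes of each list and main comparison by adjusted p, and the 2 most alike genes of each) were chosen with earlier results of these data known. Outside the rule, SOX2, VIM, NECTIN2, CRB3, EZR, AJUBA, DENND1A and AP3M1 were named after their values were seen. Same-numbered libraries deviated together (every r over 0.1, across genes) in OE with Dox and OE without Dox and in OE without Dox and WT. In KO and WT they did not. The labels do not say that the numbers pair libraries, and 9 of 54 pairs with different numbers were also over 0.1. The highest r, 0.44, was between KO replicate 2 and WT replicate 1. The main fit used no replicate block, and the block was run as an alternative.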

Additional observations from a re-analysis of the deposited data

Results flagged for a closer look

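VCL in KO replicate 2, at 1781 beside 268 to 581 in the other 4 KO libraries, was farther from its group than Dixon's ratio allows (0.793, with a 95% critical value of 0.71 for 5 libraries). Chance flags about 1 in 20 groups, and 11 genes were examined this way.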

How the results depend on the processing

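Of 1880 recomputed folds of the 10 genes, 1764 kept their direction and side of the threshold, 52 no longer passed, 22 newly passed and 42 changed sign. No called fold changed sign. Leaving out 1 library at a time gave 1 to 2 of the 10 called in OE without Dox against WT (2 with all libraries) and 3 to 6 in OE with Dox against WT (5). Over all genes it gave 419 to 1077 in OE without Dox against WT (982) and 176 to 374 in KO against OE without Dox (360). Without the first replicate of every group, 1 of the 10 and 456 of all genes were called in OE without Dox against WT. That set gave sign changes in KO against WT for CRB1 (-0.0039) and NECTIN1 (0.10), in OE without Dox against WT for CRB1 (-0.10), PRKCI (0.018) and NECTIN1 (0.14), and in KO against OE without Dox for AFDN (0.042). Without WT replicate 1 and KO replicate 2, signs changed in KO against WT for NECTIN1 (0.12), in OE without Dox against WT for CRB1 (-0.033) and NECTIN1 (0.17), and in KO against OE without Dox for PARD3 (-0.039) and VCL (-0.30). Under the replicate block signs changed for PARD6B in KO against WT (0.081), for CRB1 (-0.020) and PARD3 (-0.0030) in KO against OE without Dox, and for VCL in OE with Dox against KO (-0.15). VCL also changed sign there by edgeR (-0.14) and DESeq2 (-0.13). With the block CRB2 passed in KO against WT (-0.58, adjusted p = 0.016 by limma), NECTIN1 in OE with Dox against WT (0.49, 0.036) and NECTIN1 in the Dox effect minus the KO effect (0.63, 0.043); it changed no other call. Upper quartile scaling changed signs in KO against OE without Dox for NECTIN1 (0.0045) and TJP1 (0.0098), and in OE with Dox against WT for TJP1 (-0.021). It gave 1825 higher and 2508 lower of all genes with Dox (2189 and 2204 otherwise) and 1318 and 1075 in KO against WT (1136 and 1223). Leaving out 1 library at a time, folds spanned -0.014 to 0.38 for CRB1, -0.53 to 0.13 for PARD6B and -0.18 to 0.14 for NECTIN1 in KO against WT. They spanned -0.033 to 0.37 for CRB1 and -0.15 to 0.17 for NECTIN1 in OE without Dox against WT. They spanned -0.039 to 0.088 for PARD3, -0.30 to 0.38 for VCL, -0.17 to 0.15 for CRB1, -0.22 to 0.020 for CRB2, -0.078 to 0.084 for NECTIN1, -0.076 to 0.035 for TJP1 and -0.15 to 0.032 for AFDN in KO against OE without Dox. They spanned -0.087 to 0.10 for TJP1 in OE with Dox against WT. The cause was not tested. Depth limits PARD6B most, with 92 reads in its lowest group.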
